A study of Mus musculus with 6 samples.

Results

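The zinc-dependent histone deacetylases were followed through muscle differentiation in C2C12, an established mouse myoblast line whose cells leave the cell cycle and fuse into multinucleated myotubes in low-serum medium. The genes were taken by symbol: *Hdac1*, *Hdac2*, *Hdac3* and *Hdac8* (class I), *Hdac4*, *Hdac5*, *Hdac7* and *Hdac9* (class IIa), *Hdac6* (class IIb) and *Hdac11* (class IV). All 10 were among the 54525 gene rows of the deposited counts, and all 10 passed the filter on low counts that left 16290 genes for testing. RNA-seq had been performed on 3 samples of wild-type (WT), untreated C2C12 myoblasts at day 0 (D0) and on 3 samples of the same line at day 5 of differentiation (D5), with no time point in between and no other cell line. The labels give the cell type of all 6 samples as myoblasts, also at D5. Both groups carry the same genotype and differ in the day and in the medium that goes with it, and p-values measure the spread between these cultured samples of 1 line.

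Histone deacetylases remove acetyl groups from lysines of histones and of other proteins, and at chromatin this is linked to lower transcription. Of the class I enzymes, HDAC1 and HDAC2 are catalytic subunits of the NuRD, Sin3, CoREST and MiDAC corepressor complexes and HDAC3 of the NCoR complex. Class IIa enzymes have little catalytic activity of their own. They bind MEF2 transcription factors through their N-terminal part and hold MEF2 target genes, many of them muscle genes, in a repressed state until kinases such as CaMK and PKD phosphorylate them and 14-3-3 proteins carry them out of the nucleus.

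Gene counts per library ranged from 25449759 to 40895840 and were higher in all D0 than in all D5 libraries, so levels are given in CPM, counts per 1000000 after TMM scaling in edgeR. Levels are compared between genes only in TPM, where counts are divided by exonic length and each library is scaled to a sum of 1000000. TPM carries no TMM factors, so its changes between days can differ from those in CPM. Markers followed the days. The 5 myotube genes *Myog*, *Myh3*, *Ckm*, *Acta1* and *Tnnt3* summed to 55.4 to 68.6 CPM at D0 and 11155 to 11919 CPM at D5. The 3 myoblast genes *Myod1*, *Myf5* and *Pax7* summed to 339 to 356 CPM at D0 and still to 154 to 160 CPM at D5. The 3 proliferation genes *Mki67*, *Top2a* and *Ccnb1* summed to 1384 to 1400 CPM at D0 and to 40.4 to 47.5 CPM at D5. The part of this fall of proliferation genes in the changes below was not tested, and in bulk RNA fewer cells of a type and less RNA per cell cannot be told apart. Of 15 markers of other cell types, 10 stayed under 1 CPM in every library, with *Cfd* and *Rbfox3* at 0 throughout. Their sum was 243 to 254 CPM at D0 and 15.0 to 17.9 CPM at D5, and most of it at D0 was *Tubb3*, a tubulin gene, with a mean of 220 CPM.

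With TMM scaling every deacetylase gene was called different between myoblasts and myotubes, but not in 1 direction. In edgeR's quasi-likelihood test with Benjamini-Hochberg adjustment over all genes, 7 of the 10 were lower at D5 and 3 were higher. The lower genes were *Hdac1*, *Hdac2*, *Hdac3*, *Hdac8*, *Hdac7*, *Hdac9* and *Hdac6*, and the higher ones *Hdac4*, *Hdac5* and *Hdac11*. *Hdac5* turned below 0 in counts that were not scaled or were scaled to spike-ins. With scaling to spike-ins only *Hdac1*, *Hdac2*, *Hdac9* and *Hdac11* were still called. Calls were common in these data: 40.8% of all genes tested were called lower, 42.2% higher and 82.9% in either direction, so the number of calls among the deacetylases is read against that background. The genes differed more in the size of their changes. Log2 fold changes ran from -3.45 for *Hdac9* to 2.63 for *Hdac11*, and their median was -0.44, against 0.0022 over all genes tested. Only *Hdac9* and *Hdac11* passed a log2 fold change of 2 in size, as did 16.8% of all genes. In CPM no gene of the 10 had overlapping groups, with 7 lower and 3 higher in every D5 library, positions that 41.1% and 42.2% of all genes also took.

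**Figure D1:**
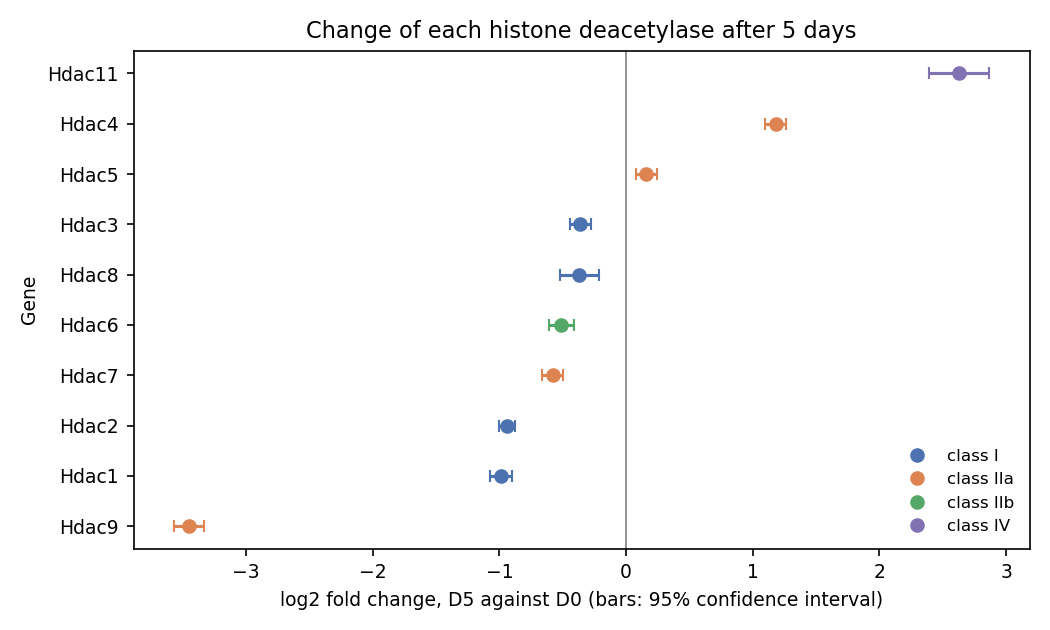
Log2 fold change of each histone deacetylase gene, D5 against D0 (x axis, edgeR with TMM scaling), by gene (y axis); points are estimates from 3 libraries per group, bars are 95% confidence intervals and colours are classes. The 4 class I genes lie between -0.99 and -0.36, whereas the class IIa genes run from -3.45 for *Hdac9* to 1.18 for *Hdac4*; *Hdac5* at 0.16 falls below 0 in unscaled or spike-in-scaled counts.

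All 4 class I genes were lower in myotubes, with larger log2 fold changes for *Hdac1* and *Hdac2* than for *Hdac3* and *Hdac8*, a difference between genes that was not tested. *Hdac1* and *Hdac2* encode closely related nuclear enzymes that pair within the NuRD, Sin3 and CoREST complexes. *Hdac1* (ENSMUSG00000028800.15, chromosome 4 of GRCm38 from 129516104 to 129542713) had 74.0, 73.2 and 73.8 CPM in the D0 libraries and 39.8, 35.5 and 35.8 CPM in the D5 libraries. The myoblast values lay within 1 CPM of each other, and every myotube value was far below them, at 50.3% of the D0 level (log2 fold change -0.99, standard error 0.044, adjusted p = 5.6e-19 in edgeR's test). *Hdac2* (ENSMUSG00000019777.16, chromosome 10 from 36974544 to 37001889) had 174, 172 and 169 CPM in myoblasts and 90.9, 89.1 and 88.6 CPM at D5. It kept 52.2% of its D0 level (log2 fold change -0.94, standard error 0.034, adjusted p = 2.5e-21 in edgeR's test), so the pair moved by nearly equal amounts, and the ratio of *Hdac2* to *Hdac1* TPM was 1.79 ± 0.0276 at D0 and 1.87 ± 0.0947 at D5 (SD, n = 3 each), with overlapping groups.

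The counts of *Hdac1* carry an uncertainty that those of *Hdac2* do not. Of the 50-base sequences in its transcripts, 35.5% also occur in other annotated genes, 31.7% in the processed pseudogene *Gm10093* alone, and how reads with several matches were treated is not stated. *Gm10093* had 503, 509 and 541 counts at D0 and 157, 106 and 150 at D5. With its counts and those of a second pseudogene, *Gm4864*, added to *Hdac1*, a choice made once the data had been seen, the log2 fold change was -1.03. No 50-base sequence of *Hdac2*, *Hdac3* or *Hdac8* was found in another gene.

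*Hdac3*, the catalytic subunit of the NCoR complex (ENSMUSG00000024454.15, chromosome 18 from 37935844 to 37955016), had 70.2, 72.5 and 65.6 CPM in myoblasts and 53.9, 55.2 and 53.5 CPM at D5. The groups were apart by more than the spread of either, although the step was smaller, to 78.1% of the D0 level (log2 fold change -0.36, standard error 0.042, adjusted p = 5.5e-09 in edgeR's test). *Hdac8*, an X-linked enzyme that deacetylates the cohesin subunit SMC3 (ENSMUSG00000067567.12, chromosome X from 102284639 to 102505359), was the least abundant class I gene, with 10.9, 11.5 and 11 CPM in the D0 libraries and 9.20, 8.56 and 8.08 CPM in the D5 libraries. Its values did not overlap between days either, with a log2 fold change of -0.37 and a standard error of 0.078 (adjusted p = 8.6e-05 in edgeR's test). The order of *Hdac1* and *Hdac3* changed, as the ratio of *Hdac3* to *Hdac1* TPM was 0.801 ± 0.0429 at D0 and 1.25 ± 0.0881 at D5 (SD, n = 3 each), below 1 in all D0 libraries and above 1 in all D5 libraries. With the pseudogene counts added to *Hdac1* the ratio was 0.664 ± 0.0361 at D0 and 0.977, 1.15 and 1.07 in the D5 libraries, so that 2 of 3 were above 1.

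The 4 class IIa genes moved apart. *Hdac9* made the largest fall of all deacetylases (ENSMUSG00000004698.10, chromosome 12 from 34047580 to 34917095, a gene of 869516 bases). It encodes a MEF2-binding protein and, by alternative splicing, a shorter form known as MITR that lacks the deacetylase domain. *Hdac9* had 70.5, 68.8 and 68.8 CPM in myoblasts and 5.77, 6.65 and 6.59 CPM in myotubes, from 2642, 2894 and 2772 counts to 145, 164 and 164. Replicates were tight at both days and the groups were 10.9-fold apart (log2 fold change -3.45, standard error 0.059, adjusted p = 6.5e-30 in edgeR's test). Only 2.61% of all genes tested had a lower log2 fold change. The counts are summed over the gene, so its 10 annotated transcripts cannot be told apart, and no level is given for MITR.

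*Hdac4* went the other way (ENSMUSG00000026313.16, chromosome 1 from 91928779 to 92195699). In adult muscle it is known as a deacetylase that accumulates after loss of the nerve and acts on MEF2. Its level was 40.1, 41.3 and 41.5 CPM at D0 and 88.8, 93.0 and 97.6 CPM at D5, so that every myotube library held over 2 times the level of any myoblast library (log2 fold change 1.18, standard error 0.041, adjusted p = 8.6e-22 in edgeR's test). The direction held under every scaling tried, but the call was lost with scaling to spike-ins (log2 fold change 0.61, adjusted p = 0.374 in edgeR's test). Of its exonic length, 22.4% lies opposite the long noncoding gene *Gm26720*, which had at most 3 counts in any library. The ratio of *Hdac4* to *Hdac9* TPM turned over between the days, from 0.527, 0.557 and 0.559 in the D0 libraries to 14.3, 13.0 and 13.7 in the D5 libraries.

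*Hdac5* changed least. It is a MEF2 repressor like *Hdac4* (ENSMUSG00000008855.17, chromosome 11 from 102194432 to 102230166), and had 75.7, 76.6 and 75.9 CPM in myoblasts and 79.5, 90.6 and 85.3 CPM at D5. The myotube values were above the others but more spread (log2 fold change 0.16, standard error 0.041, adjusted p = 6.0e-04 in edgeR's test). The call did not hold with total counts alone (0.077, adjusted p = 0.0757 in edgeR's test), and in TPM the groups overlapped at 30.0 ± 0.554 and 30.0 ± 1.39 (SD, n = 3 each). *Hdac7*, the class IIa member best known from endothelium and thymocytes (ENSMUSG00000022475.19, chromosome 15 from 97792664 to 97844502), fell from 67.1, 67.1 and 69.5 CPM to 44.2, 46.9 and 45.6 CPM, with no overlap. This was 67.1% of the D0 level (log2 fold change -0.58, standard error 0.041, adjusted p = 6.6e-14 in edgeR's test).

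**Figure D2:**
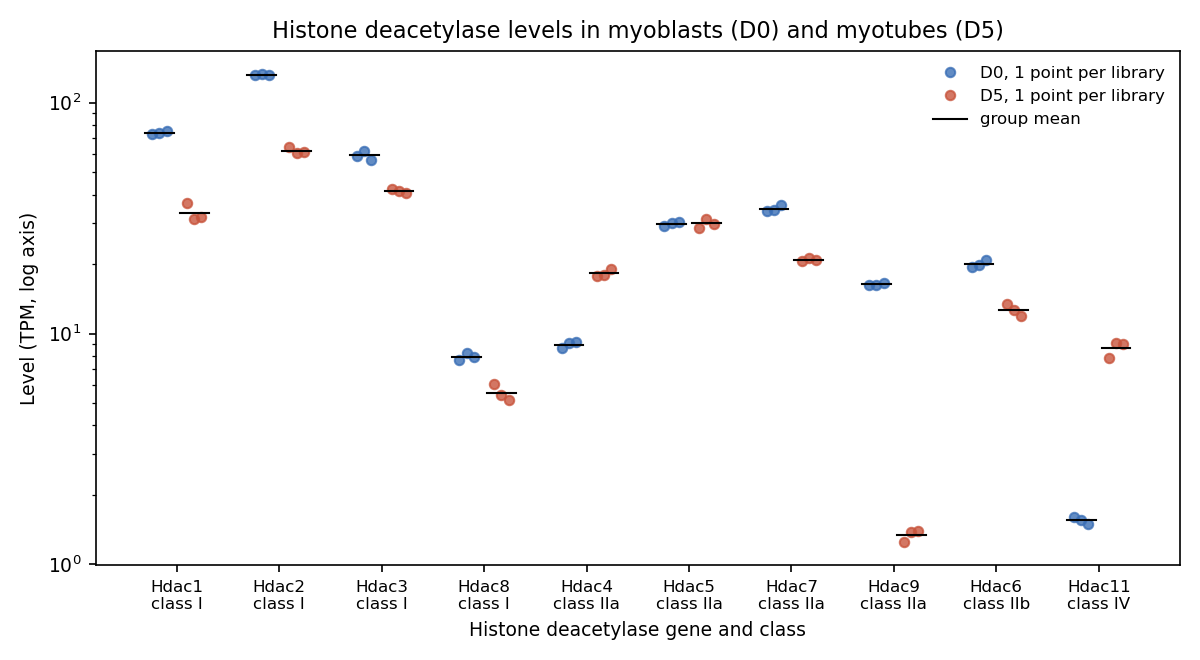
TPM of each histone deacetylase gene (y axis, log scale) in every library, by gene and class (x axis); each point is 1 library (3 at D0, 3 at D5) and black lines are group means. *Hdac9* drops from 16.4 to 1.34 TPM and *Hdac11* climbs from 1.55 to 8.64 TPM, while the *Hdac5* groups overlap at 30.0 TPM.

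The start regions of *Hdac9*, *Hdac5*, *Hdac4* and *Hdac11* are shown because these genes span the changes from the largest fall to the largest rise. RefSeq windows of GRCm38.p6 were found for 8 of the 10 genes, 12 windows in all. The 250 bases before each RefSeq start are used. They were searched on both strands for the E-box CANNTG, which is bound by MyoD-family and other bHLH factors, and for the MEF2 motif, with matches in capitals below (5′ to 3′, coding strand). A match is only a match of letters, and 66.2% of all 32851 windows of this length hold an E-box and 2.92% a MEF2 motif. The MEF2 motif was searched in a fixed form, so near matches are not counted. A RefSeq start can lie inside the annotated gene, so the windows are not all upstream of their genes. The *Hdac4* and inner *Hdac9* windows lie inside their genes, and the *Hdac11* window runs past its gene's annotated start at 91156665.
*Hdac9*, outer start (chr12:34917096-34917345, - strand): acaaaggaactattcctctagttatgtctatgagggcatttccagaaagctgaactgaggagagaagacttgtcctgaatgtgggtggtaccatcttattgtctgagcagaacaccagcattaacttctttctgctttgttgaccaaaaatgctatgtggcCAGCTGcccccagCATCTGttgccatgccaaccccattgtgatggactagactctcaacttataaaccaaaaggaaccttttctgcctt
*Hdac9*, inner start (chr12:34528890-34529139, - strand): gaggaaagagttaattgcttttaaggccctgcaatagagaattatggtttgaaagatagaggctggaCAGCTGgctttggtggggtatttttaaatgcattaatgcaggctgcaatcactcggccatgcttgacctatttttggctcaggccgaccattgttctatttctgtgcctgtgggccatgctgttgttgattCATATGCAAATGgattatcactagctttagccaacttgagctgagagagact
*Hdac5* (chr11:102230173-102230422, - strand): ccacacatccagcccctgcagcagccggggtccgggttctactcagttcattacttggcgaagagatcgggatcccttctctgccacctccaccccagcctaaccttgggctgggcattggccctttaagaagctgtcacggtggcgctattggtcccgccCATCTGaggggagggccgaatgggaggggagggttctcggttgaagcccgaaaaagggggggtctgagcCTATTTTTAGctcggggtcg
*Hdac4* (chr1:92180342-92180591, - strand): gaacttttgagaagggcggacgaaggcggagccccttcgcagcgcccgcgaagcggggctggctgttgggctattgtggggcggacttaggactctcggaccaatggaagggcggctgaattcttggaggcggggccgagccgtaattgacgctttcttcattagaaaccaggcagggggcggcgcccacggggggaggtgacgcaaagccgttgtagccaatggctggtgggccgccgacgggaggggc
*Hdac11* (chr6:91156565-91156814, + strand): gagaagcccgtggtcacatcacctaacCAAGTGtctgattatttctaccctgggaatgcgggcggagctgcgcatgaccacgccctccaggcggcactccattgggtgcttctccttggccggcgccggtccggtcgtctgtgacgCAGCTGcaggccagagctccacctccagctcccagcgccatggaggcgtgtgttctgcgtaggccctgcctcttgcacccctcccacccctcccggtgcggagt

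Both *Hdac9* windows were poor in GC, at 44.4% and 43.6%, with 0 and 2 CG dinucleotides, and 20.1% of all windows had a lower GC content than the inner one. The other members' windows had 48.4% (*Hdac8*) to 74.0% (*Hdac7*), against a median of 52.4% and 6 CG dinucleotides over all windows. The *Hdac9* windows held 2 and 3 E-boxes and no MEF2 motif. The window of *Hdac5* was the only one of the 12 with a MEF2 motif, whose first base lies 20 bases before the start, and it held 1 E-box. The window of *Hdac4* had neither. It held 4 copies of GGGCGG, a GC-box that 32.7% of all windows hold, and 2 of CCAAT, which 33.8% hold. That window lies inside the annotated gene, so the bases before the gene's outer end at 92195699 were not searched. *Hdac11* had 2 E-boxes and 1 copy each of GGGCGG and CCAAT.

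*Hdac11*, the only class IV enzyme, rose most (ENSMUSG00000034245.10, chromosome 6 from 91156665 to 91174692). It is a small protein that removes long fatty acyl groups from lysine more readily than acetyl groups. It was barely expressed in myoblasts, with 68, 73 and 66 counts, and had 239, 282 and 280 counts in myotubes despite their shallower libraries. In CPM these were 1.82, 1.74 and 1.64 at D0 and 9.52, 11.4 and 11.3 at D5, a 6.20-fold step with no overlap (log2 fold change 2.63, standard error 0.12, adjusted p = 3.6e-19 in edgeR's test). A log2 fold change below this was held by 91.6% of all genes tested. Of its exonic length, 17.9% lies opposite *Gm44002* or *Gm14573*, which had at most 9 counts in any library, and with their counts added, likewise a later choice, its log2 fold change was 2.48.

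*Hdac6*, a cytoplasmic class IIb enzyme that deacetylates tubulin (ENSMUSG00000031161.15, chromosome X from 7930120 to 7947889), had 33.3, 33.3 and 34.4 CPM in myoblasts and 24.6, 24.0 and 22.4 CPM at D5. All myotube libraries were lower, at 70.4% of the D0 level (log2 fold change -0.51, standard error 0.051, adjusted p = 1.7e-10 in edgeR's test). *Hdac10*, the other class IIb gene and not among the 10, is a polyamine deacetylase with a level of 15.8 ± 0.765 CPM in myoblasts and of 12.8 ± 1.09 CPM in myotubes (SD, n = 3 each). Its log2 fold change was -0.31 (adjusted p = 2.0e-04 in edgeR's test).

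Summed by class in TPM, class I lost more than class IIa. The class I genes together had 272, 277 and 272 TPM in the D0 libraries and 149, 139 and 139 TPM in the D5 libraries, and the class IIa genes 88.1, 90.0 and 92.0 TPM and 68.5, 72 and 71.1 TPM. The median log2 fold change was -0.65 in class I, where 4 of 4 were lower, and -0.21 in class IIa, where 2 were lower and 2 higher. With 4 genes in each class, genes not being replicates, these are descriptions without a test. Class I made up 71.0% ± 0.536 of the summed deacetylase TPM at D0 and 60.8% ± 1.45 at D5, and class IIa 23.4% ± 0.395 and 30.1% ± 1.28 (SD, n = 3 each), with no overlap between days for either share. The sum over all 10 genes was 385 ± 4.11 TPM at D0 and 234 ± 4.24 TPM at D5 (SD, n = 3 each). TPM carries no TMM factors, and *Hdac5* had a mean of 30 TPM on both days but of 76.1 CPM at D0 and 85.1 CPM at D5. How much of the falls in summed TPM lies in the unit was not tested.

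Inside class IIa the make-up was redrawn. *Hdac7* held 38.6%, *Hdac5* 33.3%, *Hdac9* 18.2% and *Hdac4* 9.95% of the class IIa TPM in myoblasts on average. In myotubes *Hdac5* held 42.6%, *Hdac7* 29.6%, *Hdac4* 25.9% and *Hdac9* 1.90%. Class I kept its leading gene, with *Hdac2* at 48.4% of the class I TPM at D0 and 43.6% at D5, while *Hdac3* went from 21.6% to 29.1%.

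**Figure D3:**
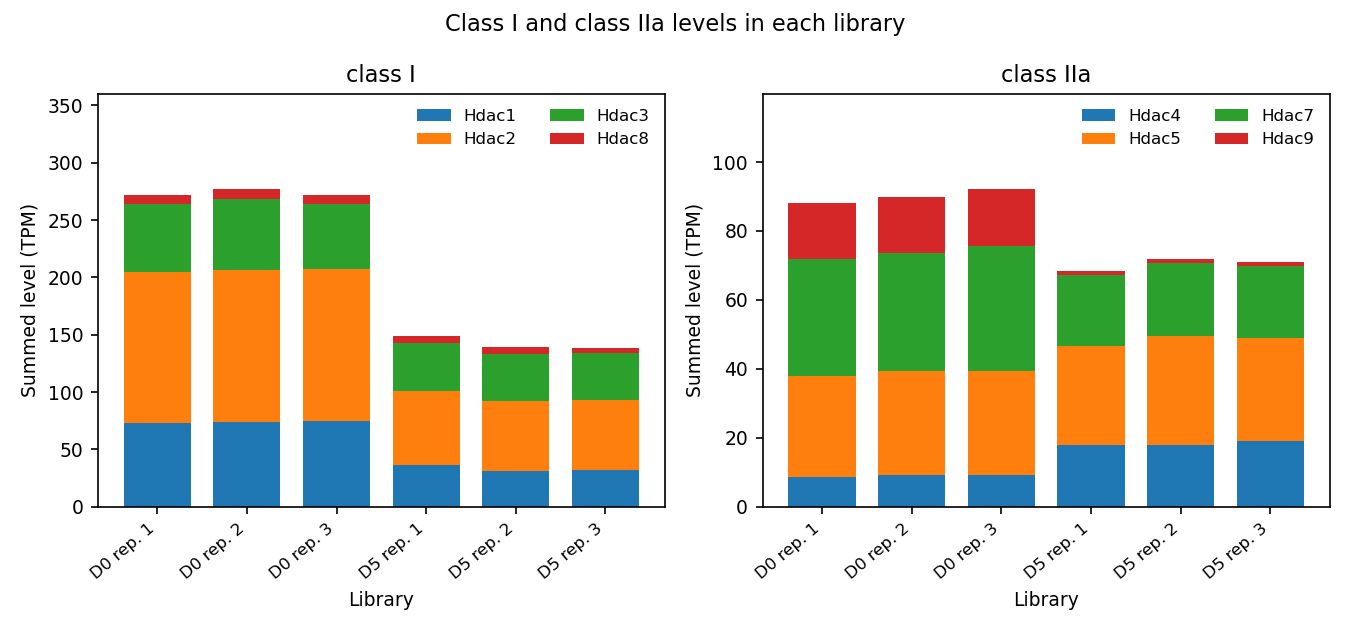
Summed TPM (y axis) of the class I genes (left) and the class IIa genes (right) in each of the 6 libraries (x axis), with segments for single genes; the panels have separate scales. Class I sums fall from 272 to 277 TPM at D0 to 139 to 149 TPM at D5, and in class IIa the *Hdac9* segment shrinks while that of *Hdac4* grows.

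Ordered by TPM, the myoblasts had *Hdac2* (132), *Hdac1* (73.9), *Hdac3* (59.2), *Hdac7* (34.8), *Hdac5* (30.0), *Hdac6* (20), *Hdac9* (16.4), *Hdac4* (8.96), *Hdac8* (7.94) and *Hdac11* (1.55), and no neighbours in this order overlapped between libraries. In myotubes the order was *Hdac2* (62.0), *Hdac3* (41.5), *Hdac1* (33.4), *Hdac5* (30.0), *Hdac7* (20.9), *Hdac4* (18.3), *Hdac6* (12.6), *Hdac11* (8.64), *Hdac8* (5.52) and *Hdac9* (1.34), where only *Hdac1* and *Hdac5* overlapped. *Hdac9* thus went from the seventh to the last place and *Hdac11* left the last. TPM rests on the union of all annotated exons, which is 15813 bases for *Hdac4* and 14665 for *Hdac9* against 3445 for *Hdac1*, so the levels of genes with long models are low estimates where the cells use shorter transcripts.

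The choice of scaling shifted all deacetylases alike. The ERCC spike-ins, synthetic RNAs, took 0.726% to 0.859% of the counts in the D0 libraries and 0.720% to 2.09% in the D5 libraries. With no scaling, which keeps the difference in depth, the median of all genes was -0.68, and scaled to the spike-ins it was -0.58. *Hdac5* was then at -0.52 and -0.38, above both medians but below 0. With spike-in scaling the standard errors grew to between 0.52 and 0.59, and *Hdac1* (-1.57), *Hdac2* (-1.50), *Hdac9* (-4.02) and *Hdac11* (2.08) were the members still called. Leaving out any 1 library kept all 10 calls.

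**Figure D4:**
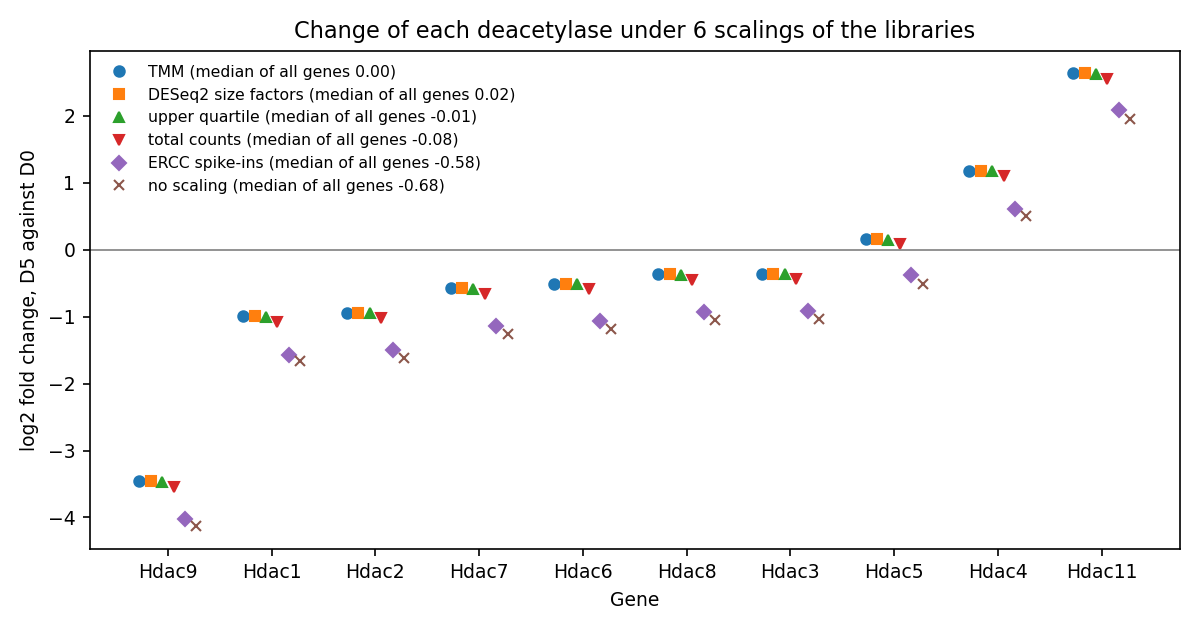
Log2 fold change of each deacetylase, D5 against D0 (y axis), under 6 scalings of the libraries (symbols), by gene (x axis); the legend gives the median over all genes under each scaling. TMM, DESeq2 size factors, the upper quartile and total counts lie close together, unscaled and spike-in-scaled values sit lower for every gene, and *Hdac5* alone changes sign.

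Among complexes that hold class I enzymes, NuRD and CoREST had more subunits lower than higher. Of the 12 NuRD subunits 9 were lower and 2 higher (*Chd3* and *Chd4*, both remodelling ATPases), with a median log2 fold change of -0.47. The largest NuRD fall was that of *Gatad2a*, a zinc finger subunit, from 198 ± 1.95 to 100 ± 2.18 CPM, and the largest rise that of *Chd3*, from 386 ± 2.75 to 676 ± 25.5 CPM (SD, n = 3 each, D0 then D5). Of 6 CoREST subunits 4 were lower (*Rcor1*, *Rcor2*, *Hmg20b* and, most of all, the demethylase gene *Kdm1a* at -0.80) and *Rcor3* was higher (0.20), with a median of -0.25.

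Sin3 had 7 of 13 listed subunits higher and 3 lower (*Sin3a*, *Sap130* and *Brms1l*). The median of the list was 0.13, with changes from -0.93 for *Sap130* to 0.47 for *Arid4a*. All 7 of these higher calls had log2 fold changes below 0 in unscaled and in spike-in-scaled counts, as did *Chd4*, *Rcor3* and *Dnttip1*. *Rbbp4* (-0.20) and *Rbbp7* (-0.61), subunits of both NuRD and Sin3, were listed with NuRD only and were lower. In MiDAC, *Trerf1* (0.73) and *Dnttip1* (0.18) were higher and *Elmsan1* (-0.41), now called *Mideas*, was lower. With scaling to spike-ins, *Gatad2a* and *Mbd3* of NuRD, *Kdm1a* of CoREST and *Sap130* of Sin3 were the subunits of these 4 complexes still called, all lower. The counts above stand beside 40.8% lower and 42.2% higher calls among all genes tested.

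The MEF2 genes, whose products class IIa enzymes bind, were higher at D5 in all 3 tested cases, where 42.2% of all genes were. All 3 were above 0 under each scaling, but with scaling to spike-ins only *Mef2c* was still called, and *Mef2a* (0.43, adjusted p = 0.539 in edgeR's test) and *Mef2d* (0.65, adjusted p = 0.335 in edgeR's test) were not. *Mef2c* went from 0.633 ± 0.0498 to 159 ± 7.45 CPM, *Mef2a* from 188 ± 2.84 to 377 ± 7.78 CPM and *Mef2d* from 129 ± 4.12 to 301 ± 5.48 CPM (SD, n = 3 each), while *Mef2b* had at most 10 counts in any library and was not tested.

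Among 14 kinases that can phosphorylate class IIa enzymes, 7 were higher and 6 lower (median log2 fold change 0.019), beside 42.2% higher and 40.8% lower among all genes. The CaMKII gene *Camk2b* had 3 counts in every D0 library and 223, 226 and 196 in the D5 libraries, and *Camk4* had at most 2 counts at D0 and 60, 87 and 88 at D5, too few in myoblasts for a fold. *Camk2a*, also a CaMKII gene, had 39, 39 and 48 counts at D0 and 2179, 2274 and 2124 at D5 (log2 fold change 6.38). *Prkd1*, which encodes PKD1, had the largest fall, from 5.54 ± 0.913 to 1.01 ± 0.406 CPM (SD, n = 3 each). Of the 7 higher calls, *Camk2d*, *Camk2g*, *Sik1* and *Sik2* were below 0 in unscaled and spike-in-scaled counts. The 3 other higher calls and 3 of the 6 lower calls were kept with spike-in scaling.

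All 7 genes of the 14-3-3 family, whose products keep phosphorylated class IIa enzymes in the cytoplasm, were lower at D5, where 40.8% of all genes were. Their log2 fold changes ran from -2.04 to -0.32 with a median of -0.66, and each was below 0 under every scaling. With scaling to spike-ins 3 of the 7 (*Ywhah*, *Ywhaq* and *Sfn*) were still called lower. *Sfn* had few counts, with 18, 30 and 29 at D0 and 1, 10 and 7 at D5. *Ywhah* fell most, from 176 ± 1.54 to 42.9 ± 2.53 CPM (SD, n = 3 each).

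Among the other enzymes of the acetylation cycle, the sirtuins, NAD-dependent deacetylases of class III, split evenly. Of 7, *Sirt2* and *Sirt5* were higher, *Sirt1* and *Sirt6* were lower and 3 had no call (median log2 fold change 0.0095). *Sirt2*, a largely cytoplasmic enzyme, went from 46.6 ± 0.775 to 78.7 ± 1.65 CPM and *Sirt6*, a chromatin enzyme, from 24.8 ± 0.891 to 13.5 ± 0.865 CPM (SD, n = 3 each). Of 9 histone acetyltransferases 6 were lower and 2 higher (*Kat6b* and *Kat8*), with a median log2 fold change of -0.39 and a range from -0.60 for *Kat6a* to 0.55 for *Kat6b*. *Sirt5*, *Kat6b* and *Kat8* were below 0 in unscaled and spike-in-scaled counts, and with the latter *Sirt6* was the only gene of both lists still called. Among all genes tested 42.2% were higher and 40.8% lower.

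**Figure D5:**
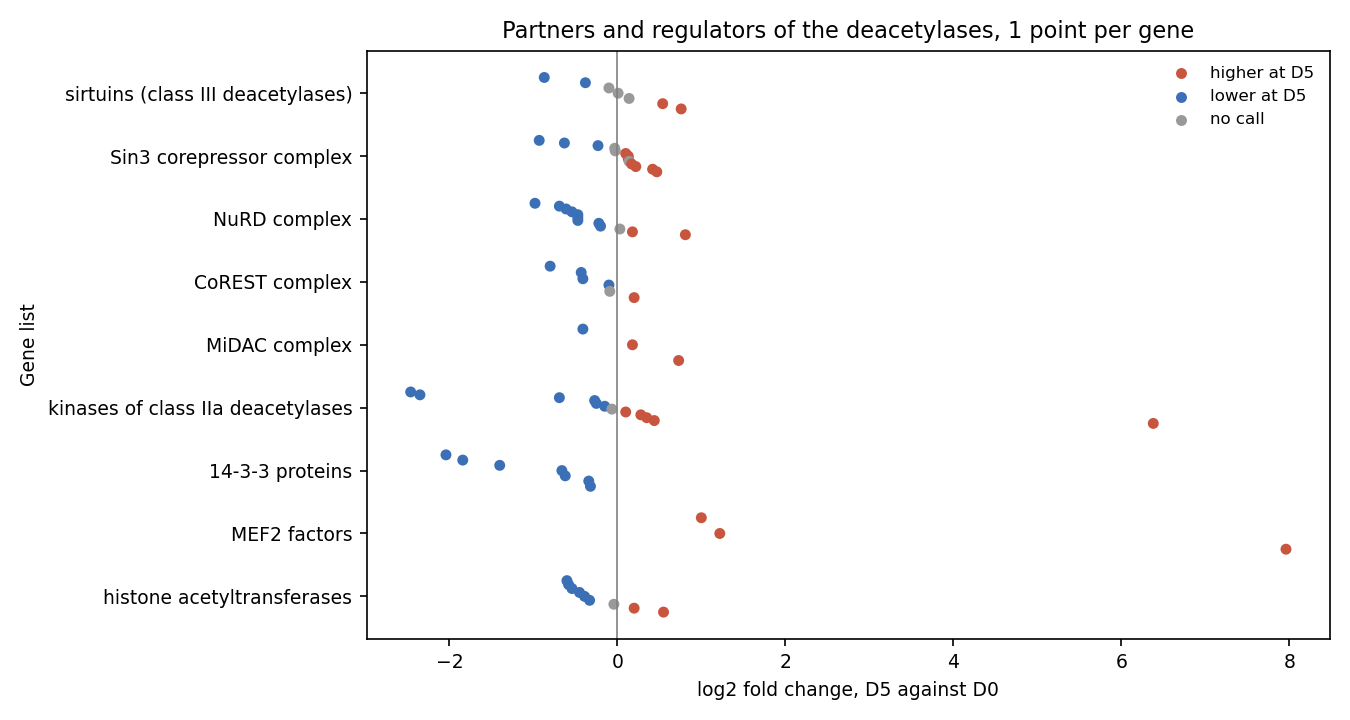
Log2 fold change, D5 against D0 (x axis, TMM scaling), of the tested genes of 9 lists of partners and counterparts of the deacetylases (y axis); each point is 1 gene, red and blue points are higher and lower calls at a threshold of 0.05 and grey points have no call. All 7 14-3-3 genes lie below 0 and all 3 tested MEF2 genes above it; *Camk2b* and *Camk4*, with at most 3 counts in every D0 library, are left out, and the 7 Sin3 rises, among others, turn negative in unscaled or spike-in-scaled counts.

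Over the 6 libraries, the genes whose pattern lay nearest to *Hdac9*, by the distance between centred log2 CPM values, were *Krt80* (distance 0.094), *Ccne2* (0.11) and *C530008M17Rik* (0.11), with log2 fold changes of -3.39, -3.54 and -3.41. *Ccne2*, a G1/S cyclin, fell from 42.3 ± 0.498 to 3.63 ± 0.485 CPM (SD, n = 3 each). Nearest to *Hdac11* were *Adcy3* (0.10), *Fam102a* (0.10) and *Pacsin3* (0.11). With 2 groups of 3 libraries, genes with a like difference between the days come out near each other.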

How the data were processed

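The authors aligned reads to GRCm38 (mm10), ran featureCounts and deposited the raw counts per gene, 1 file per sample. The labels name Tophat2 2.0.0 as aligner and the paper HISAT2. The strand setting, the annotation release and the handling of multi-mapping reads are not given in the sources used here. The 92 ERCC rows and an unnamed row that equals the column total entered neither library sizes nor tests.

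From the deposited counts, TMM factors, CPM, log2 fold changes and quasi-likelihood tests came from edgeR 4.0.16 (R 4.3.3) once filterByExpr had removed low genes, with Benjamini-Hochberg adjustment over 16290 genes and a threshold of 0.05. A standard error is |log2 fold change| over the square root of F. TPM used exonic lengths of GENCODE M21, to which 99.9% of the gene rows matched by identifier. No permutation test was used, since 3 against 3 cannot reach below 0.1 (two-sided). Replicates differed by more than sampling noise (chi-square over degrees of freedom 2.32 to 3.73). Scripts were tested on simulated data.

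The genes named outside the 10 are *Hdac10*, the markers, all genes of lists of up to 5, and of each longer list the largest rise and the largest fall among calls whose mean reached 100 counts in a group; *Mideas* was found under its older symbol, and 1 list is not reported here. Other list genes named to spell out small counts, and *Camk2a*, *Camk4*, *Rbbp4* and *Rbbp7*, were chosen after their values were seen. The 3 genes nearest to *Hdac9* and *Hdac11* were found by Euclidean distance of centred log2(CPM + 0.5). The members and lists were chosen with earlier results of these data known. Alternatives were DESeq2 1.42.0, upper-quartile factors, total counts, no scaling, ERCC scaling, no low-count filter, a minimum of 10 counts per library, CPM shares, *Hdac10* added, single libraries left out, and a replicate block.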

Additional observations from a re-analysis of the deposited data

How the results depend on the processing

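Leaving out each library in turn kept 3 deacetylases higher and 7 lower, the class I median between -0.69 and -0.64 and the class IIa median between -0.24 and -0.17. DESeq2, upper-quartile factors and at least 10 counts in every library gave the same calls. Without scaling, 3353 genes were higher and 10953 lower, the class medians were -1.33 and -0.89 and *Hdac5* was at -0.52. Scaled to the ERCC spike-ins, 1813 genes were higher and 3747 lower, 1 deacetylase was higher and 3 lower, the medians were -1.21 and -0.76 and *Hdac5* was at -0.38, and *Hdac3*, *Hdac4*, *Hdac5*, *Hdac6*, *Hdac7* and *Hdac8* lost their calls. With total counts the medians were -0.74 and -0.29 and *Hdac5* lost its call, and without a low-count filter the class I median was -0.71. The cause of these shifts was not tested. In CPM in place of TPM the class IIa share rose by 9.35 percentage points instead of 6.76, and with *Hdac10* added by 6.26. The replicate block gave 3 higher and 7 lower members and 6894 higher and 6664 lower genes of all tested. Same-numbered libraries correlated by 0.0277 to 0.0645 in their deviations, each highest with its own number. The deviations were centred within each day, so the values of a library offset each other. No pairing can be read from them, and none was given by design.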
